A study of Mus musculus with 12 samples.

Results

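Endothelial cells line blood vessels and arise in the early embryo from mesoderm that carries KDR, a receptor for vascular endothelial growth factor. They are recognised by proteins on their surface: junction molecules that hold neighbouring cells together, the TIE receptors for angiopoietins, a co-receptor for BMP and TGF-beta ligands, and glycoproteins that blood cells share. Before vessels form, part of this surface set is already carried by mesoderm on its way to blood and endothelium.

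The 9 genes described here are Cdh5, Pecam1, Esam and Icam2 (junction and adhesion), Tek and Tie1 (TIE receptors), Eng (co-receptor), and Cd34 and Cd93 (glycoproteins). They were chosen by symbol as endothelial surface genes, with their levels over the 4 cell types already known, and each symbol matched exactly 1 of the 38924 mouse gene identifiers in the count files. Since the levels took part in the choice, the levels and differences of the 9 genes are given as a description without p-values.

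The 12 RNA-seq libraries came from 4 cell types, 3 libraries each, that were sorted out of E7.25 mouse embryos, a stage of gastrulation. All embryos were of the line Foxa2Cre:Rosa26-YFP, in which Cre recombinase under Foxa2 control switches on yellow fluorescent protein (YFP) for good, so that YFP marks cells with a history of Foxa2 expression. The types were YFP-positive cardiac mesoderm, labelled ventricular, YFP-negative cardiac mesoderm, labelled non-ventricular, endoderm sorted as EPCAM-positive, and hematopoietic mesoderm sorted as KDR-positive. No treatment is given in the labels, and they do not say how many embryos were pooled or whether the 3 replicates of a type came from separate litters, so that the spread between replicates may in part be technical. The file names carry 3 dates, each shared by the same-numbered libraries of all 4 types; what was done on these dates is not stated.

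Gene counts totalled 4472800 to 7888631 per library, and 3 counts corresponded to 0.357 to 0.723 CPM, the count scaled to a fixed library total after TMM correction. Kdr, the sort gene of hematopoietic mesoderm, stood at 665, 700 and 965 CPM there and at 4.79 to 16.4 CPM in endoderm, but it was also at 444 to 622 CPM in both cardiac mesoderm fractions. The libraries of hematopoietic mesoderm were unlike each other. The summed level of 14 blood genes was 988, 1193 and 533 CPM in its replicates 1, 2 and 3, while that of 11 genes of cardiac and other early mesoderm was 649, 550 and 1385 CPM. Most of each blood sum was Runx1, at 739, 949 and 512 CPM in replicates 1, 2 and 3. In replicate 3 the blood regulators Gata1, Gfi1b and Myb were at 0.210, 0.210 and 5.88 CPM. They were at 46.6 to 74.2, 19.5 to 22.9 and 81.9 to 102 CPM in replicates 1 and 2. Spi1, of the same list, was not lowest in replicate 3, at 0, 15.8 and 8.82 CPM in replicates 1, 2 and 3. The mesoderm sum of replicate 3 was mostly Tbx20, Hand1 and T, at 518, 417 and 374 CPM against 206 to 263, 47.5 to 81.4 and 213 to 261 CPM. Some other genes of that list were lower in it: Myl7 was at 1.26 CPM against 25.5 and 18.2, and Mesp1 and Tbx5, at 0.482 CPM or less in the other two, were at 0. The embryonic globins Hba-x and Hbb-y and the white cell gene Ptprc were at 0 counts in all 3, and Hbb-bh1 reached at most 11.3 CPM. The sum of 11 endoderm genes was 2371 to 5693 CPM in endoderm and 18.5 to 165 CPM in the 9 other libraries. That of 6 epiblast genes was 542 to 607 CPM in endoderm, 70.9 to 325 CPM in cardiac mesoderm and 2.89 to 6.24 CPM in hematopoietic mesoderm. Most of it was Otx2 in endoderm, at 346 to 365 CPM, and in cardiac mesoderm, at 64.0 to 252 CPM. In cardiac mesoderm Pou5f1 reached at most 26.8 CPM and Sox2 at most 1.68 CPM. The calls below and the ratios of Cdh5, Tek and Eng are also given without replicate 3.

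**Figure D1:**
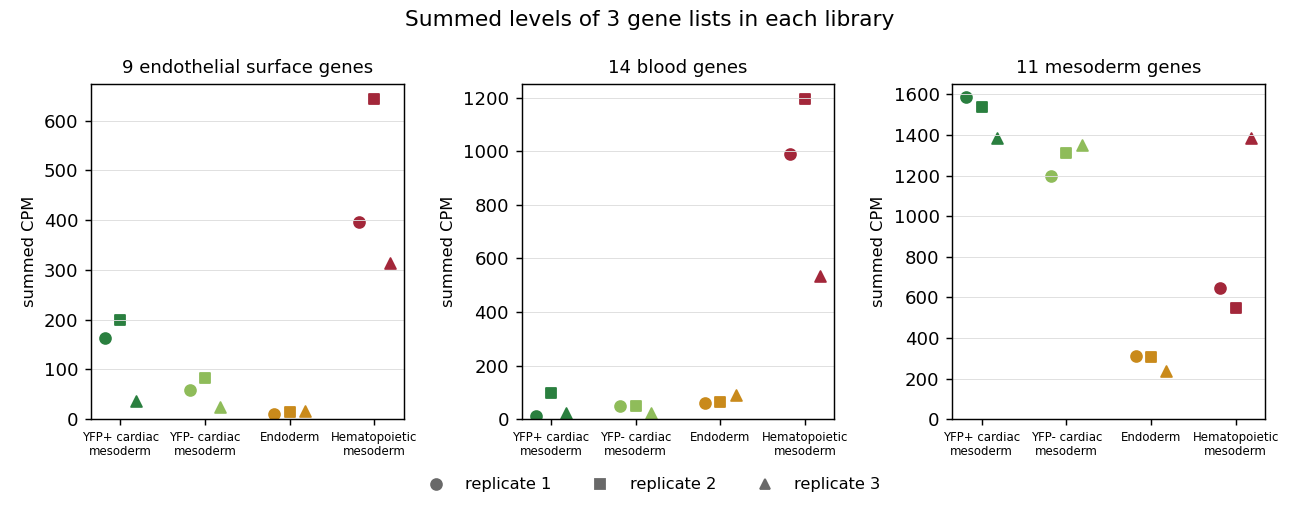
Summed CPM (vertical axis) of the 9 endothelial surface genes, 14 blood genes and 11 mesoderm genes in each of the 12 libraries, with 1 point per library and the symbol giving the replicate. Hematopoietic mesoderm holds the 3 highest libraries for the endothelial and the blood genes, and its replicate 3, at 1385 CPM, lies with the cardiac mesoderm libraries for the mesoderm genes.

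The 9 genes differed in pattern. Cdh5 and Tek were high in every hematopoietic mesoderm library and low everywhere else. Pecam1, Tie1, Esam, Cd34 and Icam2 had their highest or second highest mean in hematopoietic mesoderm but had 1 count or fewer in at least 1 of its libraries, and Eng, also highest there by mean, was in all 3 at uneven levels. Cd93 ran the other way: it was absent from all 3 hematopoietic mesoderm libraries and highest in YFP-positive cardiac mesoderm. In bulk samples such as these, fewer expressing cells and less RNA per cell cannot be told apart.

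**Figure D2:**
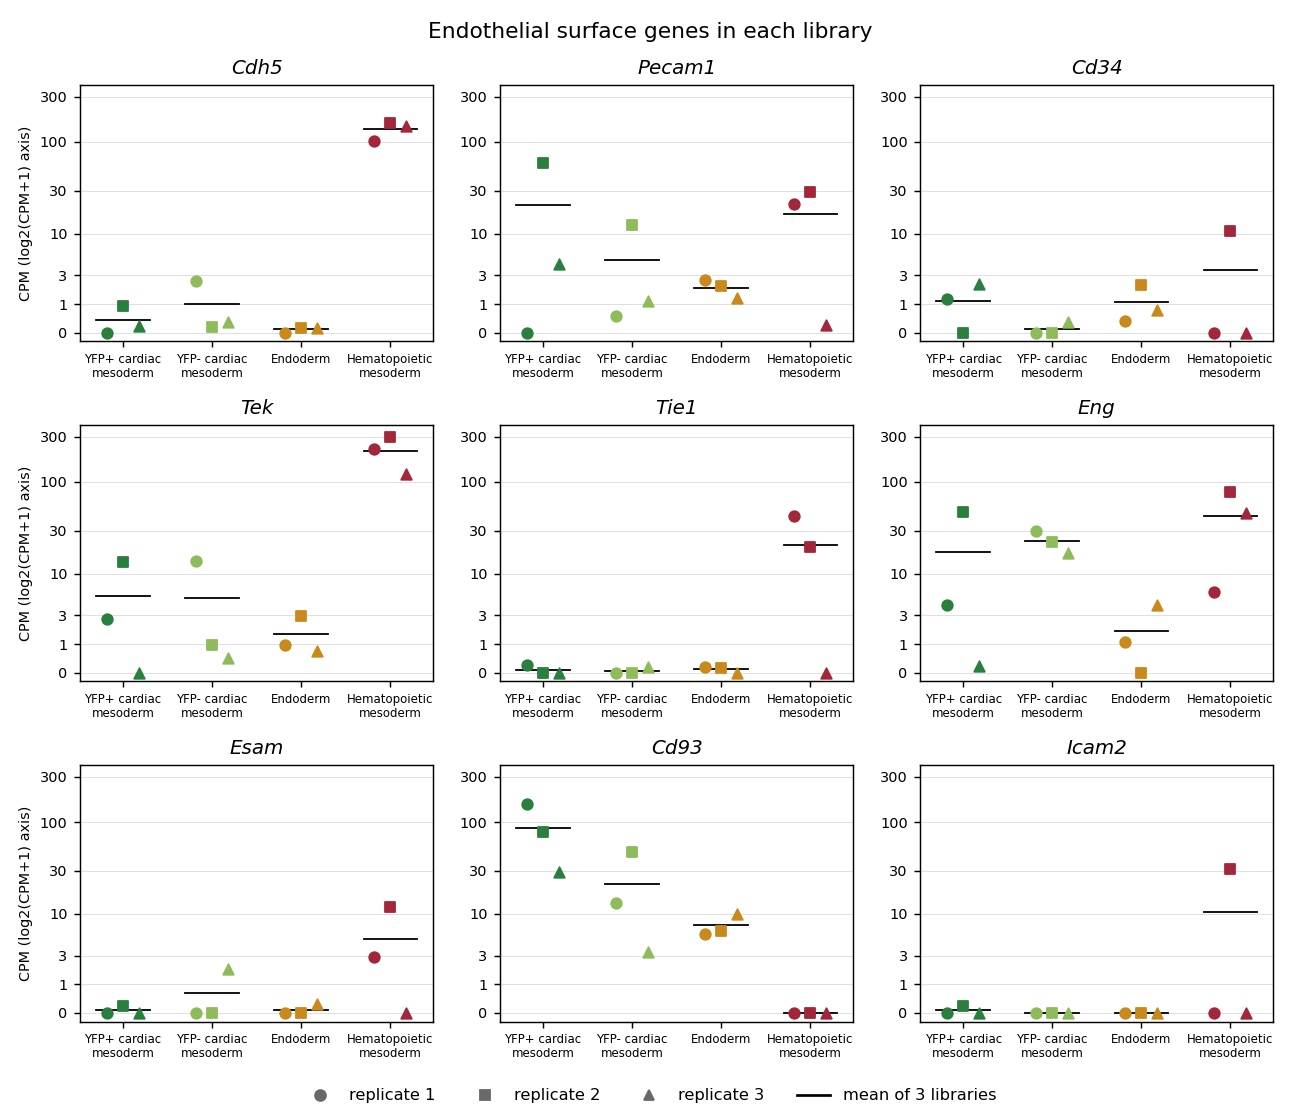
CPM of each of the 9 genes in the 12 libraries, on a log2(CPM+1) axis, with 1 point per library, the symbol giving the replicate and the bar the mean of 3 libraries. Only Cdh5 and Tek have all 3 hematopoietic mesoderm libraries above every other library, at 101 CPM or more and 122 CPM or more, and Cd93 has all 3 at 0.

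Among the junction genes, Cdh5 encodes VE-cadherin, the cadherin of endothelial adherens junctions. It was at 101, 160 and 146 CPM in hematopoietic mesoderm (136 ± 30.6, SD, n = 3). In the 9 other libraries it did not pass 2.51 CPM: the values were 0, 0.911 and 0.185 CPM in YFP-positive cardiac mesoderm, 2.51, 0.140 and 0.290 in YFP-negative cardiac mesoderm, and 0, 0.129 and 0.119 in endoderm. The groups did not overlap, and hematopoietic mesoderm was the highest type on each of the 3 dates. The ratio of means was 371 over YFP-positive and 138 over YFP-negative cardiac mesoderm, and 357 and 133 without hematopoietic replicate 3. Both lower means rest on few counts: without YFP-positive replicate 2 that fraction held 1 Cdh5 count, and without YFP-negative replicate 1 that fraction held 3. Endoderm held 2 Cdh5 counts in all against 2036 in hematopoietic mesoderm, a ratio of pooled CPM of 1554 with a 95% exact counting interval from 430 to 12840. Among the 3 lower types neighbours in the order overlapped: the YFP-negative fraction with the YFP-positive, and that with endoderm. Cdh5 (ENSMUSG00000031871.8) lies on chromosome 8 (GRCm38, 104101625 to 104144511).

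Pecam1 encodes PECAM-1 (CD31), an immunoglobulin-family adhesion molecule of endothelium and platelets that pluripotent cells also carry. It was at 21.4 and 28.8 CPM in hematopoietic replicates 1 and 2, but at 0.210 CPM, a single count, in replicate 3. Its highest value of all 12 libraries, 58.9 CPM, was in YFP-positive cardiac mesoderm replicate 2, while replicates 1 and 3 of that fraction were at 0 and 4.26 CPM. The YFP-negative fraction was at 0.503, 12.6 and 1.16 CPM and endoderm at 2.54, 2.07 and 1.31 CPM. The ranges of all 4 types therefore overlapped, and their order hung on single libraries. Without replicate 2 the mean of the YFP-positive fraction went from 21.0 to 2.13 CPM, without replicate 2 that of the YFP-negative fraction went from 4.76 to 0.831 CPM, and without replicate 3 that of hematopoietic mesoderm went from 16.8 to 25.1 CPM.

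The same YFP-positive replicate 2 was also the highest of the cardiac mesoderm libraries for Eng, at 47.8 CPM, and carried Tek at 13.7 CPM. It held Tal1, Gata2 and Runx1, regulators of blood and endothelial fate, at 174, 73.8 and 96.4 CPM, against at most 22.0, 15.2 and 22.9 CPM in the other two YFP-positive libraries. Fli1, Etv2 and Ets1 were not highest in it, at 13.9, 28.8 and 49.9 CPM against up to 25, 67.5 and 87.2 CPM. The other 13 genes of the blood list summed to 2.73 CPM in it, against 6.24 and 0.740 CPM. Cdh5, Tie1, Esam and Icam2 stood at 0.911, 0, 0.182 and 0.182 CPM in it. The part of other cells in this library's Pecam1 and Eng was not tested.

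Esam and Icam2 encode an endothelial tight junction adhesion molecule and a ligand for leukocyte integrins. Esam was at 2.89, 11.9 and 0 CPM in hematopoietic mesoderm, and the only other library with more than 3 counts was YFP-negative replicate 3 at 1.88 CPM. Icam2 was found at 31.3 CPM, from 181 counts, in hematopoietic replicate 2 and at 0 counts in replicates 1 and 3. Outside hematopoietic mesoderm Icam2 had 1 count in all 9 libraries together. Presence in a single library of a type was also found among genes that passed the expression filter. Of 8825 tested genes that reached 100 counts in a hematopoietic mesoderm library, 287 (3.25%) had at most 3 counts in both other replicates, and 136 of the 287 were in replicate 2. In the YFP-positive fraction these were 208 of 9177 genes (2.27%), in the YFP-negative fraction 50 of 9422 (0.531%) and in endoderm 3 of 9808 (0.0306%). Icam2 itself did not pass the expression filter and is not among the 287. The filter drops genes found in 1 library alone, so the 287 do not show how common the pattern of Icam2 was. In hematopoietic mesoderm 1238 of the 8825 (14%), Pecam1 among them, had at most 3 counts in at least 1 other replicate.

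The TIE receptors are tyrosine kinases: TEK (TIE2) binds the angiopoietins, and TIE1, which has no angiopoietin of its own, modulates it. Tek was at 221, 302 and 122 CPM in hematopoietic mesoderm (215 ± 89.9, SD, n = 3). It was at 2.71, 13.7 and 0 CPM in YFP-positive cardiac mesoderm, 13.9, 0.981 and 0.435 CPM in YFP-negative cardiac mesoderm, and 0.954, 2.98 and 0.713 CPM in endoderm. The lowest hematopoietic library thus stood above the highest of the 9 others, and the type was the highest on each of the 3 dates. The ratios of means were 39.4 over the YFP-positive fraction, 42.1 over the YFP-negative fraction and 139 over endoderm, and 47.9, 51.2 and 169 without hematopoietic replicate 3. Single libraries set the lower means: the ratios were 159 without YFP-positive replicate 2, 304 without YFP-negative replicate 1 and 258 without endoderm replicate 2. The order of the 3 lower types was not resolved, since their ranges overlapped.

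Tie1 was far less even. It was at 43.4 and 19.9 CPM in hematopoietic replicates 1 and 2 and at 0 counts in replicate 3, where Tek still stood at 122 CPM. Outside hematopoietic mesoderm it had 1, 1 and 2 counts in all in the YFP-positive fraction, the YFP-negative fraction and endoderm. The pooled ratio over the YFP-negative fraction was 402, with a 95% exact counting interval from 71.6 to 15930. The groups overlapped only through replicate 3. Like Icam2, Tie1 did not pass the expression filter and was not in the fit across genes.

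Promoters were at hand for 4 of the 9 genes in the RefSeq table (GRCm38.p6), from 250 bases before to 50 bases after the start given there. For Tie1, on the minus strand, the GENCODE annotation places the start at 118490061, further upstream but inside the printed stretch. The promoters of the TIE receptor pair are printed because the pair shares 1 ligand system and was high together in hematopoietic replicates 1 and 2. ETS factors, many of them active in blood and endothelium, bind sites with a GGAA core, and capitals mark CAGGAA or its reverse complement TTCCTG.
Tek, chr4:94739039-94739338, plus strand: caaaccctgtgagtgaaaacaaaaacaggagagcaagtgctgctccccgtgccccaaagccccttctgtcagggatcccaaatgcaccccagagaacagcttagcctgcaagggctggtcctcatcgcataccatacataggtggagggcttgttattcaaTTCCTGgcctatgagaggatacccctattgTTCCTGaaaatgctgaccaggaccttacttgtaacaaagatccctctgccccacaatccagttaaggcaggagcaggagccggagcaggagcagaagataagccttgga
Tie1, chr4:118489800-118490099, minus strand: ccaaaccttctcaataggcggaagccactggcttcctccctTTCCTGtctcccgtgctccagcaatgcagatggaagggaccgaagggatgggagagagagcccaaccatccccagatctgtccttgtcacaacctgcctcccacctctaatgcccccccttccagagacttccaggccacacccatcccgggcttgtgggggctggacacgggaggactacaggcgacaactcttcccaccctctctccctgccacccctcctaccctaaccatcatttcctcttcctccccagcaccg
On both strands, CAGGAA occurred 2 times in the Tek promoter and 1 time in that of Tie1, and also 2 times in that of Cd34 and 1 time in that of Eng. Of all 32851 promoters of this length, 30.6% held it. A second ETS-type core, CCGGAA, was in none of the 4 and in 14.9% of all promoters. The GATA-type core AGATAA (11.2% of all) and the SOX-type core AACAAT (10.7% of all) each occurred 1 time in the Tek promoter and in none of the other three, and the AACAAT match, on the opposite strand, overlaps the second marked site. A match describes the letters only.

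Eng encodes endoglin, a co-receptor for BMP and TGF-beta ligands that is found on hemangioblast cells as well as endothelium. Hematopoietic mesoderm had 6.02, 78.5 and 46.2 CPM of Eng, the YFP-negative fraction 29.5, 22.4 and 17.1, the YFP-positive fraction 4.16, 47.8 and 0.185, and endoderm 1.11, 0 and 4.16. The YFP-negative fraction was the most even, at 23.0 ± 6.22 CPM (SD, n = 3), and its 3 libraries all stood above the 3 of endoderm, with a ratio of means of 13.1. The endoderm mean of Eng, 1.76 CPM, was 0.557 CPM without endoderm replicate 3. Hematopoietic mesoderm also stood above endoderm in each library, by 24.8 in the ratio of means and by 35.5, 14.9 and 24.0 without replicates 1, 2 and 3 in turn, but it overlapped both cardiac mesoderm fractions. An exon of Fpgs lies on the opposite strand within Eng, at 0 to 136 counts per library. The strand setting of the counting is not stated, so reads of the overlap may be missing from Eng or belong to Fpgs.

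Cd34 and Cd93 encode surface glycoproteins of endothelium and of blood progenitors, CD34 a sialomucin and CD93 a lectin-like receptor that binds the matrix protein multimerin-2. Cd34 was low throughout. It was at 10.6 CPM, from 61 counts, in hematopoietic replicate 2 and at 0 in replicates 1 and 3, and elsewhere it did not pass 2.22 CPM. A long noncoding gene on the opposite strand, Gm16897, shares exonic bases with Cd34 but had at most 1 count in any library.

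Cd93 had 0 counts in all 3 hematopoietic mesoderm libraries. It was at 156, 78.0 and 29.1 CPM in YFP-positive cardiac mesoderm, 13.2, 47.6 and 3.33 CPM in the YFP-negative fraction, and 5.73, 6.21 and 9.98 CPM in endoderm. Set against a floor of 3 counts per hematopoietic library, Cd93 means were higher at least 140-fold for the YFP-positive fraction, 34.3-fold for the YFP-negative fraction and 11.7-fold for endoderm. On each of the 3 dates Cd93 was lower in hematopoietic mesoderm than in any other type, and higher in the YFP-positive than in the YFP-negative fraction. The ranges of the 2 fractions overlapped, the lowest YFP-positive value being 29.1 CPM and the highest YFP-negative value 47.6 CPM, and without YFP-negative replicate 2 the mean of that fraction went from 21.4 to 8.29 CPM. Each YFP-positive library exceeded each endoderm library, with a ratio of means of 11.98. Without YFP-positive replicate 1 the mean of that fraction was 53.5 CPM, the ratio over endoderm 7.33 and the bound over hematopoietic mesoderm 85.8-fold. Cd93 (ENSMUSG00000027435.8) lies on chromosome 2 (GRCm38, 148436640 to 148443563).

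Per exon length, as RPKM (CPM divided by the exon length in kilobases), Tek led in hematopoietic mesoderm at 45.6 ± 19.1 (SD, n = 3), followed by Cdh5 at 32.2 ± 7.28 and Eng at 10.8 ± 8.96. Tek and Cdh5 differed by less than the spread of Tek. Icam2, Tie1, Pecam1, Esam and Cd34 followed at mean levels of 5.49, 4.29, 2.70, 1.73 and 0.483 RPKM, each with at least 1 library at 1 count or fewer. On the same scale Kdr was at 86.0 ± 18.2 RPKM. In YFP-positive cardiac mesoderm the order was different, with Cd93 first at 13.1 ± 9.56 RPKM (8.02 without replicate 1) and Cdh5 at 0.0869 RPKM. In summed CPM of the 9 genes, Cdh5 and Tek together made up 81.4%, 71.8% and 85.2% in hematopoietic replicates 1, 2 and 3, and Cd93 made up 94.9%, 39.1% and 80.9% in YFP-positive replicates 1, 2 and 3.

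**Figure D3:**
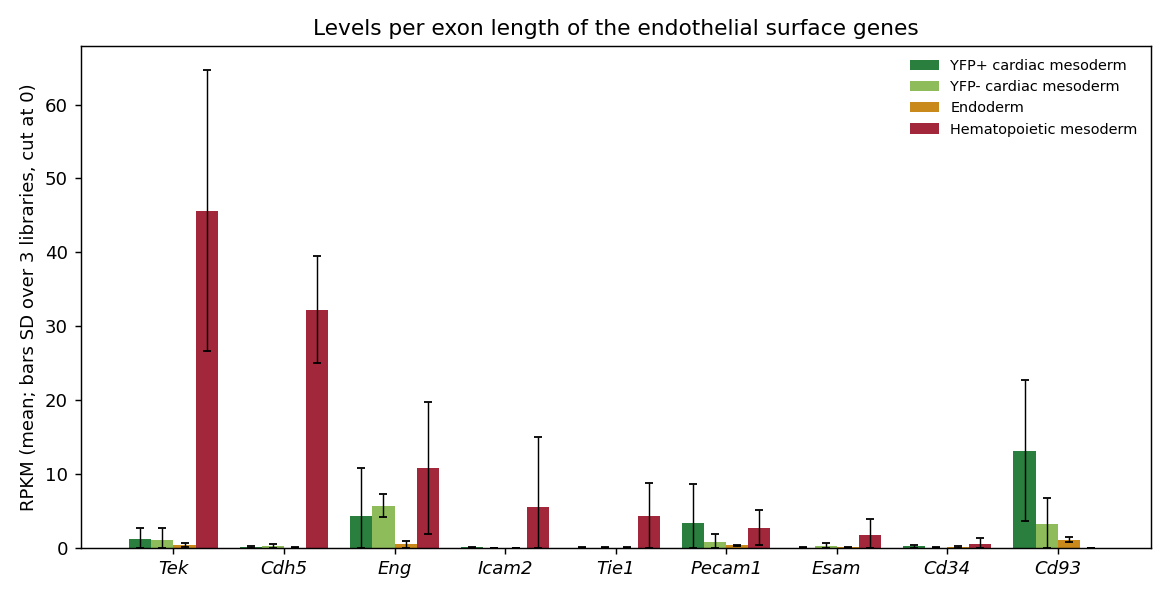
Mean RPKM of the 9 genes in the 4 cell types, ordered by the mean in hematopoietic mesoderm, with bars for the SD over 3 libraries that stop at 0 where the SD exceeds the mean. Tek (45.6) and Cdh5 (32.2) lead in hematopoietic mesoderm, and Cd93 leads in YFP-positive cardiac mesoderm at 13.1.

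Counting genes with more than 3 counts, hematopoietic replicate 2 held 8 of the 9 genes, all but Cd93. Replicate 1 held 6, lacking Cd34 and Icam2 as well, and replicate 3 held 3, namely Cdh5, Tek and Eng. At the lower threshold of at least 1 count, the number of all genes detected was 12676, 14491 and 12484 in replicates 1, 2 and 3. Each library of the other types held 3 to 5 of the 9, with Cd93 in all 9 of these libraries and Eng, Tek and Pecam1 in 7 each.

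Across all genes, the edgeR quasi-likelihood fit tested 14170 genes, and an adjusted p under 0.05 was counted as a call. Of the 9 genes, 7 entered it. Between hematopoietic mesoderm and the YFP-positive fraction 2 were called, Cdh5 higher and Cd93 lower, where 1.79% of all genes were called. The same 2 were called against the YFP-negative fraction (0.593% of all genes), but neither with the replicate number as a block. Against endoderm Cdh5 and Tek were called higher and Cd93 lower (5.65% of all genes). Without hematopoietic replicate 3 these counts were again 2, 2 and 3. The count against the YFP-negative fraction went to 0 without YFP-negative replicate 2 and to 1 without YFP-negative replicate 1 or 3 or hematopoietic replicate 1. That against endoderm went to 2 without hematopoietic replicate 1 or endoderm replicate 1 or 2, and to 1 without endoderm replicate 3. By ranges, Cdh5 and Tek lay above every library of each other type, Eng lay above endoderm as well, and Cd93 lay below all. Of all genes, 5.86% lay above and 8.12% below the YFP-positive fraction in this way, 6.87% and 11.8% the YFP-negative fraction, and 10.9% and 23.4% endoderm. In the pairs without hematopoietic mesoderm, Cd93 lay above endoderm in the YFP-positive fraction (10.9% of all genes above, 19.3% below). In the YFP-negative fraction Eng and Cdh5 lay above endoderm and Cd34 below (12.2% and 17.2%), the last 2 from few counts. Between the fractions none of the 7 was separated (5.04% above and 7.04% below). Since the genes were chosen on these contrasts, nothing is read from these counts. In the 3 comparisons without hematopoietic mesoderm edgeR called 0 of the 7. Between the fractions none of the 7 had an unadjusted p under 0.05 (7.49% of all genes had) and DESeq2 called 0. Between the YFP-positive fraction and endoderm 1 had such a p (15.8% of all genes) and DESeq2 called 1. Between the YFP-negative fraction and endoderm 2 had such a p (10.3% of all genes) and DESeq2 called 0. Of all genes, edgeR called 0%, 1.54% and 1.31% in these comparisons in turn, and the share called by DESeq2 is not given here.

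The 100 genes related to these 9 (7 lists of partners, relatives and regulators) took no part in the choice of the 9, and 78 of them were tested. Their lists were, however, compiled with earlier results of these data known. The counts, medians and p-values below therefore describe these genes and are no independent test. By edgeR, 10 were called higher in hematopoietic mesoderm than in the YFP-positive fraction and 0 lower, where 0.635% and 1.15% of all genes were. Against the YFP-negative fraction 4 were higher and 0 lower (0.191% and 0.402% of all genes). Against endoderm 15 were higher and 2 lower (2.42% and 3.23% of all genes). The median log2 fold changes of the 78 were 0.65, 0.59 and 0.56, against -0.03, -0.02 and -0.07 over all genes. These comparisons share the hematopoietic libraries. By ranges, 26, 26 and 27 of the 78 lay above the other type in these comparisons and 5, 6 and 14 below. Of all genes, 5.86%, 6.87% and 10.9% lay above and 8.12%, 11.8% and 23.4% below. DESeq2 called Mef2c, Cdh2, Smad5 and Tcf4 lower than in both fractions, and Svep1 lower than in the YFP-positive fraction. All of these but Smad5 were named after their values were seen. Without hematopoietic replicate 3, 29 of the 31 calls held, and those of Podxl and Nrp2 against the YFP-positive fraction were lost. Of the 50 calls of related genes in all 6 pairs, 14 held whichever of the pair's 6 libraries was left out. These were Ets1, Etv2, Fli1, Gata2, Msn, Nrp2, Ptprb and Tal1 for hematopoietic mesoderm against endoderm, Tjp1 against each cardiac mesoderm fraction, Ezr for the YFP-positive fraction against endoderm, and Ets1, Nrp2 and Tgfbr3 for the YFP-negative fraction against endoderm. The first 2 counts of edgeR calls depended on single libraries and on the model. They became 2 without YFP-positive replicate 3, 4 without YFP-positive replicate 1 or hematopoietic replicate 1, and 5 with the replicate block in the first comparison. In the second they became 1 without any single YFP-negative library or with the block, and 9 without hematopoietic replicate 3. The third went to 8 to 10 without any single endoderm library or hematopoietic replicate 1.

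Of the 16 endothelial transcription factors, edgeR called 5 higher in hematopoietic mesoderm than in the YFP-positive fraction. It called 1 higher than in the YFP-negative fraction and 9 higher than in endoderm, and none lower. The medians of the 16 log2 fold changes were 2.78, 2.84 and 5.52, and 14, 13 and 12 of them were positive. Mef2c ran the other way against the fractions. It was at 0, 0.866 and 0 CPM in hematopoietic mesoderm, 14.4 to 45.0 CPM in the YFP-positive and 17.1 to 27.3 CPM in the YFP-negative fraction. Its adjusted p against the 2 fractions was 0.0541 and 0.0884 with edgeR, and 1.09e-05 and 4.15e-05 with DESeq2. The ETS factor gene Ets1 was at 342, 252 and 149 CPM in hematopoietic mesoderm and 5.70 ± 1.49 CPM (SD, n = 3) in endoderm, 5.44 ± 0.59 higher on the log2 scale (SE, adjusted p = 0.000360, edgeR). It was also higher in both cardiac mesoderm fractions than in endoderm, by 3.21 ± 0.54 and 3.98 ± 0.55 on the log2 scale (edgeR adjusted p = 0.00837 and 0.00293). Gata2, a zinc finger regulator of blood progenitors, was at 382, 389 and 375 CPM in hematopoietic mesoderm against 0.777 to 3.33 CPM in endoderm (log2 fold change 7.70 ± 1.05, edgeR adjusted p = 0.00156). Tal1 and Fli1, which act early in blood and vessel formation, were at 471, 356 and 270 CPM and at 334, 361 and 83.8 CPM in hematopoietic mesoderm, and averaged 1.51 ± 1.37 and 0.589 ± 0.374 CPM in endoderm (SD, n = 3, edgeR adjusted p = 0.00202 for both). Etv2, an early inducer of the endothelial and blood program, was present in all 3 mesoderm types, with overlapping ranges. Its range was 28.2 to 42.6 CPM there, 6.04 to 67.5 for the YFP-positive and 34.2 to 59.0 for the YFP-negative fraction, while endoderm was at 0.259 to 1.11 CPM (edgeR adjusted p = 0.00744, 0.0114 and 0.00797 for the 3 types against endoderm).

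The transcription factor call against the YFP-negative fraction was Sox7, a SoxF factor of early endothelium, at 226, 337 and 395 CPM in hematopoietic libraries against 3.52, 0.841 and 1.59 CPM for YFP-negative cells. Its log2 fold change was 7.33 ± 1.20 (SE, adjusted p = 0.0209, edgeR), with 0.0508 when blocked 0.0179 without hematopoietic replicate 3 and a range from 2.87e-13 to 0.104 over the 13 alternatives. Sox7 falls outside the rule for named genes and was named after its values were seen. Unlike Tie1 and Pecam1, Sox7, Gata2 and Tal1 were held at 270 CPM or more in hematopoietic replicate 3 (395, 375 and 270 CPM), whereas Erg, an ETS factor of endothelium, was at 52.0, 97.5 and 0.840 CPM in replicates 1, 2 and 3.

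**Figure D4:**
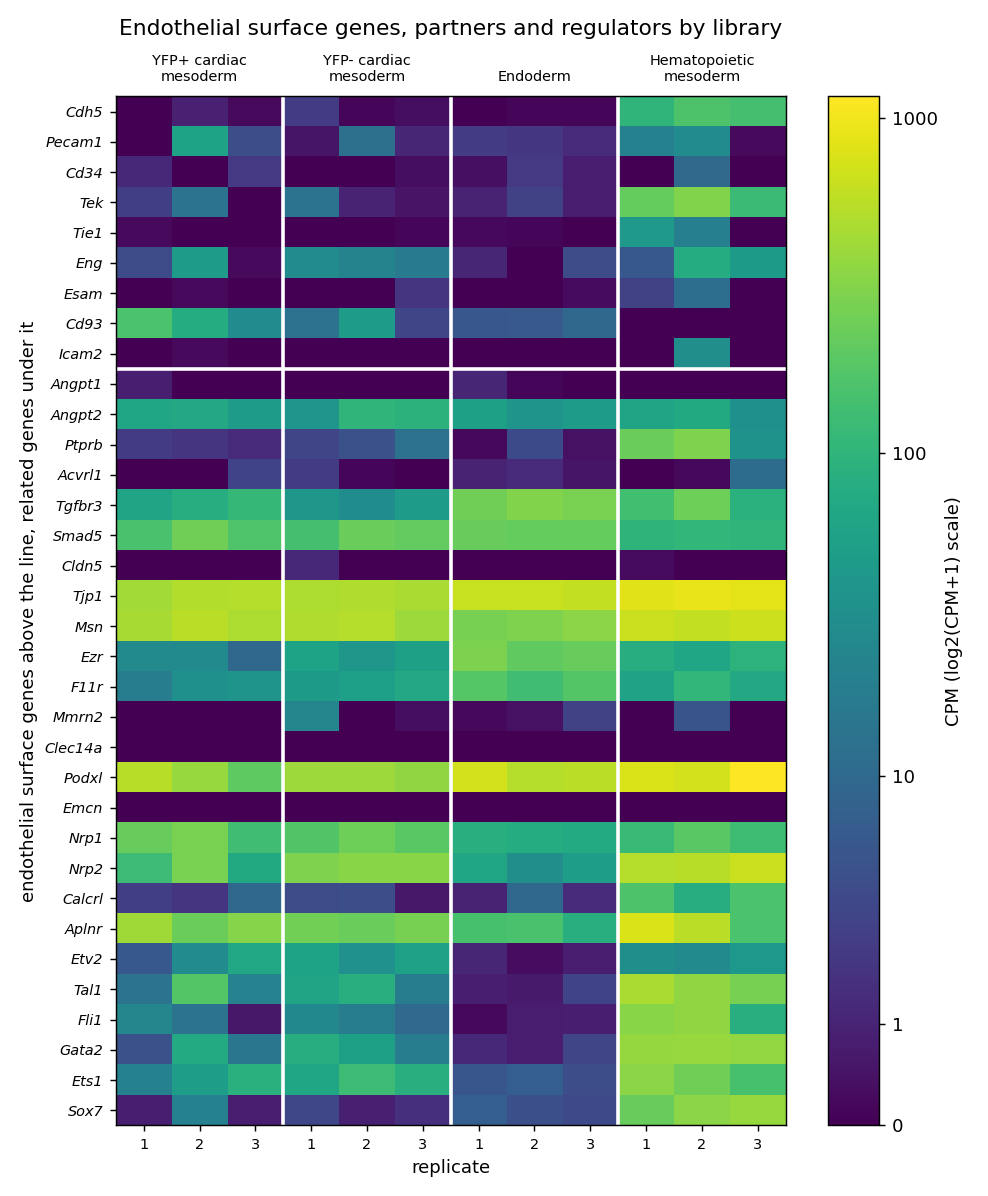
CPM of the 9 genes (above the horizontal white line) and 25 related genes in the 12 libraries, on a log2(CPM+1) colour scale, with replicates 1 to 3 of each type side by side. The row of Ptprb is bright in hematopoietic mesoderm as those of Tek and Cdh5 are, the ranges of Angpt2 overlap between all types, and Clec14a and Emcn are at 0 in every library.

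The partners of the TIE receptors differed from Tek in pattern, apart from Ptprb. Ptprb encodes VE-PTP, a phosphatase that acts on TEK and VE-cadherin. It was at 240, 295 and 36.1 CPM in hematopoietic mesoderm, 2.5, 2.00 and 1.30 CPM in the YFP-positive fraction, 3.35, 4.76 and 12.7 CPM in the YFP-negative fraction and 0.159, 3.88 and 0.357 CPM in endoderm. All 3 hematopoietic libraries were above the 9 others. The log2 fold change was 6.61 ± 1.21 over the YFP-positive fraction (SE, adjusted p = 0.0177, edgeR) and 6.99 ± 1.23 over endoderm (edgeR adjusted p = 0.00744). The first call held under 9 of the 13 alternatives, with adjusted p from 3.84e-10 to 0.203, and the second under all 13. The difference from the YFP-negative fraction was not called. Angpt2, a ligand of TEK, was at 33.4 to 72.4 CPM in hematopoietic mesoderm and 37.4 to 102 CPM in the other libraries, with all 4 types overlapping. Angpt1, the other main ligand, was at 0 counts in all hematopoietic and YFP-negative libraries and reached at most 1.11 CPM elsewhere. Of the 12 genes of this list 10 were tested, and Ptprb was the single call in the comparisons with hematopoietic mesoderm. The list medians were 0.49, 0.07 and -0.78 on the log2 scale against the YFP-positive fraction, the YFP-negative fraction and endoderm.

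Around endoglin, 13 of 15 partner genes were tested. Acvrl1 encodes ALK1, the endothelial receptor that works with endoglin. It was at 0, 0.173 and 11.1 CPM in hematopoietic mesoderm and at most 3.15 CPM elsewhere. Of the ALK1 ligands, Gdf2 was at 6.87 CPM in YFP-positive replicate 1 and 0 in the 11 other libraries, and Bmp10 reached at most 0.238 CPM, in endoderm replicate 3. Tgfbr3, encoding betaglycan, the relative of endoglin, was highest in endoderm at 278 ± 26.5 CPM (SD, n = 3). Both cardiac mesoderm fractions were lower, the YFP-positive at 83.3 ± 24.2 CPM (adjusted p = 0.0314, edgeR) and the YFP-negative at 39.8 ± 9.52 CPM (adjusted p = 0.00224, edgeR). Hematopoietic mesoderm, at 135, 243 and 90.1 CPM, was above the YFP-negative fraction by 1.97 ± 0.37 on the log2 scale (SE, edgeR adjusted p = 0.0340, 0.0691 under the replicate block and 1.54e-05 to 0.236 over the 13 alternatives). With the block, the call of the YFP-positive fraction against endoderm was lost (adjusted p = 0.0555, edgeR, and 8.99e-05 to 0.137 over the 13 alternatives). Smad5, a transducer of BMP signals, was at 97.1, 107 and 99.1 CPM in hematopoietic mesoderm against 223, 218 and 220 CPM in endoderm, with a fitted log2 difference of -1.12 ± 0.24 (SE, adjusted p = 0.0235, edgeR). The Smad5 call held under 8 of the 13 alternatives, with adjusted p from 0.00027 to 0.0845. The list medians were 0.43, -0.12 and 0.47 against the YFP-positive fraction, the YFP-negative fraction and endoderm.

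Of 20 junction partners 19 were tested, and the cytoplasmic catenins and scaffold genes were present in all types. Tjp1, encoding the tight junction scaffold ZO-1, was at 841, 921 and 868 CPM in hematopoietic mesoderm, 436 to 529 CPM in both cardiac mesoderm fractions and 607 to 646 CPM in endoderm. It was higher than in the YFP-positive fraction by 0.83 ± 0.11, the YFP-negative fraction by 0.85 ± 0.11 and endoderm by 0.48 ± 0.11 on the log2 scale (SE, edgeR adjusted p = 0.00410, 0.00510 and 0.0271). Fitting only the 2 types compared lost the first and second of these calls (edgeR adjusted p = 0.124 and 0.0691, each the highest of 13 alternatives). Each of these calls held under the 12 other alternatives. The third call, against endoderm, held under 7 of the 13, with adjusted p from 0.000703 to 0.113. Of the 6 fits that left out a library it held in 1. The actin linkers moesin and ezrin went opposite ways against endoderm. Msn was higher in hematopoietic mesoderm (657, 606 and 675 CPM) than in endoderm (302 ± 33.6 CPM, SD, n = 3, edgeR adjusted p = 0.00105), and also higher in both cardiac mesoderm fractions (edgeR adjusted p = 0.0190 and 0.0301, the second 0.0604 under the replicate block and 0.00105 to 0.207 over the 13 alternatives). For the YFP-positive fraction the adjusted p of Msn ranged from 0.000408 to 0.125 over the 13 alternatives. Ezr was lower than in endoderm (240 ± 41.7 CPM) in hematopoietic mesoderm, the YFP-positive fraction and the YFP-negative fraction (80.9, 61.8 and 95.3 CPM in the first, then 21.8 ± 10.2 and 51.6 ± 9.04 CPM, edgeR adjusted p = 0.0351, 0.00100 and 0.0143, the first 0.0561 under the block and 0.000721 to 0.135 over the 13 alternatives). Ezr was also higher in hematopoietic mesoderm than in YFP-positive cells (adjusted p = 0.0392, edgeR, 0.0677 with the block and 0.000143 to 0.490 over the 13 alternatives). F11r, encoding the tight junction protein JAM-A, was lower in YFP-positive cells than endoderm, at 29.8 ± 10.2 against 162 ± 27.5 CPM (edgeR adjusted p = 0.00748). Cldn5, the claudin of mature endothelium, had 1 count in the 3 hematopoietic libraries and 7 in YFP-negative replicate 1.

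Of the CD93 family and ligands, 2 of 6 were tested and 0 were called in any of the 6 pairs. Of the 2, Thbd and Mmrn2, 1 had an unadjusted p under 0.05 between the fractions (7.49% of all genes had) and neither had in the other pairs. DESeq2 called 0. It gave Mmrn2 no adjusted p in comparisons that included those between the fractions, with hematopoietic mesoderm, and of the YFP-positive fraction with endoderm. Mmrn2, encoding the CD93 ligand multimerin-2, was at 24.1 CPM in YFP-negative replicate 1 and 5.20 CPM in hematopoietic replicate 2, and at 2.97 CPM or less in all other libraries. Clec14a, a relative of Cd93, was at 0 counts in all 12 libraries. Among sialomucins and their ligands, 2 of 6 were tested. Podxl, the podocalyxin gene and a relative of Cd34, was at 788, 719 and 1163 CPM in hematopoietic mesoderm and 377 ± 170 CPM (SD, n = 3) in the YFP-positive fraction, 1.24 ± 0.29 apart on the log2 scale (SE, adjusted p = 0.0499, edgeR). With the block the adjusted p was 0.0725, without hematopoietic replicate 3 it was 0.0894, and over the 13 alternatives it ranged from 0.000746 to 0.317. Emcn, the endothelial sialomucin endomucin, was at 0 counts in all 12 libraries.

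Among 25 other endothelial surface genes 16 were tested, with list medians of 1.79, 2.35 and 1.29 on the log2 scale for hematopoietic mesoderm against the YFP-positive fraction, the YFP-negative fraction and endoderm. The calls numbered 1, 1 and 3, all higher. Nrp2, a co-receptor for VEGF and semaphorins, was at 531, 546 and 660 CPM in hematopoietic mesoderm and 32.0 to 64.1 CPM in endoderm (log2 fold change 3.56 ± 0.43, SE, edgeR adjusted p = 0.000644). It was at 299, 327 and 332 CPM in the YFP-negative fraction, which also exceeded endoderm (edgeR adjusted p = 0.00471), and the YFP-positive fraction had 71.2 to 283 CPM, below hematopoietic mesoderm (adjusted p = 0.0392, edgeR, 0.0700 with the block, 0.0503 without hematopoietic replicate 3 and 0.000116 to 0.227 over the 13 alternatives). Its relative Nrp1 was higher in both cardiac mesoderm fractions than in endoderm, at 212 ± 74.3 and 200 ± 38.1 against 78.6 ± 4.56 CPM (SD, n = 3, edgeR adjusted p = 0.0300 and 0.0427). These Nrp1 calls held under 8 and 6 of the 13 alternatives, with adjusted p up to 0.155 and 0.219. Calcrl, a receptor for adrenomedullin, was at 159, 81.1 and 158 CPM in hematopoietic mesoderm and at 9.99 CPM or less in every other library (edgeR adjusted p = 0.0252 against endoderm). Aplnr, the apelin receptor, was at 789, 563 and 156 CPM in hematopoietic mesoderm against 127 ± 38.0 CPM in endoderm (edgeR adjusted p = 0.0262). Over the 13 alternatives the adjusted p ranged from 2.17e-06 to 0.103 for Calcrl and from 0.000157 to 0.109 for Aplnr. The single call against the YFP-negative fraction was Flt1, a VEGF receptor named after its values were seen, at 724, 510 and 189 CPM against 91.7 ± 22.7 CPM (edgeR adjusted p = 0.0340, 0.0686 under the block and 3.78e-06 to 0.148 over the 13 alternatives).

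Between the YFP-positive and YFP-negative fractions edgeR called 0 of the 78 related genes, 12 had an unadjusted p under 0.05 and DESeq2 called 3. The share of all genes with an unadjusted p under 0.05 was 7.49%, and that called by DESeq2 is not given here. Against endoderm, 6 related genes were higher and 3 lower in the YFP-positive fraction, and 8 were higher and 2 lower in the YFP-negative fraction, where 0.953% and 0.586%, and 0.706% and 0.6%, of all genes were. Of these calls 4 and 5 were transcription factors, all higher. Without single libraries the 9 calls of the YFP-positive fraction went to 1 to 9 and the 10 of the YFP-negative fraction to 3 to 7. The lowest counts were without endoderm replicate 1 and without endoderm replicate 2 or 3.

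By likeness over the 12 libraries (Pearson's r of log2 CPM among 10274 genes), the 5 genes most like Cdh5 were Ripor2, Scube2, Ptpn7, Nrip3 and Sox18, with r from 0.941 to 0.974. Their means were 87.0, 180, 28.3, 175 and 18.03 CPM in hematopoietic mesoderm and at most 3.08 CPM in any other type. The 5 most like Cd93 were Cenpm, Epb41l3, Fgfrl1, Meis1 and Tmeff1, with r from 0.921 to 0.938. Meis1, a homeobox factor gene, averaged 53.8, 37.6 and 11.6 CPM in the YFP-positive fraction, the YFP-negative fraction and endoderm and 0.0803 CPM in hematopoietic mesoderm. Epb41l3 and Tmeff1 were also present in hematopoietic mesoderm, at 58.9 and 79.6 CPM. The 12 points fall into the 4 sorted types, and both genes of a pair share library and depth, so that r describes these libraries only.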

How the data were processed

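The authors deposited raw read counts per gene, 1 file per library. The submitters' processing notes name mm10, STAR 2.5.0a, Picard, HTSeq 0.6.0 and DESeq2 without roles. The annotation and strand setting are not given in the sources used here. The 5 summary categories held 78.5% to 81.7% of tallied reads and were left out. Symbols matched 37607 of 38924 genes in a gene name table. GENCODE vM21 (GRCm38) gave positions and exon lengths.

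In edgeR 4.0.16 (R 4.3.3), all 12 libraries entered 1 quasi-likelihood fit after TMM scaling and the default expression filter (14170 genes), with 1 coefficient per type and 8 residual degrees of freedom. Each pair of types was tested two-sided with Benjamini-Hochberg adjustment over all genes, at 0.05. CPM are scaled by TMM, and SDs are over 3 libraries. Intervals and floors (3 counts) cover counting error only, since the reads carry no molecular identifiers.

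Alternatives were RLE scaling, no filter, a mean of at least 5 CPM, DESeq2 1.42.0, only the 2 types compared, limma 3.58.1 voom with quality weights, leaving out each library, and the replicate number as a block. Same-numbered libraries share a date in the file names, and the block was therefore used; deviations of same-numbered libraries from their type means correlated at -0.0177 to 0.0319. The fits were tested on simulated data.

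The 9 genes and all lists (7 related, 4 marker) were chosen with earlier results of these data known. Of each related list, the 3 genes with the lowest adjusted p in comparisons with hematopoietic mesoderm, up to 3 called in other comparisons, and 9 direct partners were named.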

Additional observations from a re-analysis of the deposited data

How the results depend on the processing

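Counts of genes called in either direction among the 9, then among the 78 related genes, are given by comparison. The share of all genes called under each alternative is not given here. The counts in this section therefore cannot be set against such a share. With only the 2 types compared, 1 and 1 were called for hematopoietic mesoderm against the YFP-positive fraction, 0 and 1 against the YFP-negative fraction, and 1 and 16 for the YFP-positive fraction against endoderm, with 28 related genes for the YFP-negative fraction against endoderm. DESeq2 called 30, 21 and 32 related genes for hematopoietic mesoderm against the YFP-positive fraction, the YFP-negative fraction and endoderm, 21 and 23 for the fractions against endoderm, 3 between the fractions, and 1 of the 9 genes for the YFP-positive fraction against endoderm. Voom with quality weights called 1 of the 9 genes and 4 related genes for hematopoietic mesoderm against the YFP-positive fraction, 13 related genes against the YFP-negative fraction and 26 against endoderm, and 1 and 22 and 1 and 34 for the 2 fractions against endoderm. Under the replicate block, 5 and 1 related genes were called in hematopoietic mesoderm against the YFP-positive and YFP-negative fractions, and 0 of the 9 genes in the latter. With no expression filter, 11 related genes were called in that comparison.

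Leaving out each library gave 0 to 2 of the 9 genes for hematopoietic mesoderm against the YFP-negative fraction, 2 to 2 against the YFP-positive fraction and 1 to 3 against endoderm, and 0 to 0 in the other 3 comparisons. For related genes it gave 2 to 12, 1 to 9 and 8 to 21 for hematopoietic mesoderm against the YFP-positive fraction, the YFP-negative fraction and endoderm, 1 to 9 and 3 to 7 for the 2 fractions against endoderm, and 0 to 0 between them. In these fits the type with 2 libraries left is assumed to vary like the others. The causes were not tested. The 57 called log2 fold changes kept their sign under every alternative. Of them 19 lost their call with only the 2 types compared, 19 under the block, 12 with voom, 3 with RLE scaling and 1 without a filter, and 150 of 342 leave-one-out values did. The block lost, beside the calls given with their genes and those of Cdh5 and Cd93 against the YFP-negative fraction, Ets1 and Lyl1 (hematopoietic against YFP-positive mesoderm), Erg (against endoderm), Tal1 and Gata2 (both fractions against endoderm) and Fli1 (YFP-negative fraction against endoderm), and gained Cdh1 against endoderm for hematopoietic mesoderm and both fractions (edgeR adjusted p = 0.0118, 0.0178 and 0.0266, from 0.0759, 0.115 and 0.172) and Ctnnd1 for hematopoietic mesoderm against endoderm (0.0322, from 0.0709). No other call of the 9 and 78 genes changed. Depth limits genes near 3 counts, such as Tie1 and Icam2 outside hematopoietic mesoderm.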
